A study of Mus musculus with 10 samples.

Results

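The Ly6 surface proteins described here are the products of 8 mouse genes, Ly6a, Ly6c1, Ly6c2, Ly6d, Ly6e, Ly6f, Ly6h and Ly6k, which are 8 of the 21853 protein-coding genes in the deposited expression tables. They were chosen by name and selected on their TPM levels in these same libraries, so their differences between lines are given below as a description with errors and without p-values. The study asked how stored glycogen and the energy sensor AMPK bear on the exit of mouse embryonic stem cells (ESCs) from naïve pluripotency. RNA-seq covered 5 lines with 2 libraries each, 10 in all. The naïve line was wild-type J1, an ESC line from 129 mice, kept on gelatin in serum with LIF and the inhibitors PD0325901 (MEK) and CHIR99021 (GSK3), and its 3 knockout derivatives were AKO (AMPK knockout, made at Prkaa1), GKO (GYS1 knockout, an indel in exon 9) and DKO (both AMPK and GYS1). The primed line, PJ1, differed from the naïve one in medium as well as state, being grown on Matrigel in serum replacement with bFgf and Activin. Neither growth protocol lists feeder cells. AKO and DKO were selected through an integrated RFP reporter. Single colonies were picked for GKO, whereas the AMPK-targeted J1 cells were sorted for RFP and the methods do not say whether AKO and DKO each rest on 1 clone. Which clone or culture gave each library is not stated either, so a knockout and its line cannot be told apart and the spread between libraries may be technical.

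Ly6 proteins are small, disulfide-rich proteins of the Ly6/uPAR family, and most are held in the outer leaflet of the plasma membrane by a glycosylphosphatidylinositol (GPI) anchor. They are best known as surface antigens of blood cells. Ly6a encodes Sca-1, used to sort haematopoietic and other stem cells of the mouse, and Ly6c1 and Ly6c2 encode the Ly6C antigens of monocytes, T cells and endothelium. Several members, Ly6a and Ly6e among them, are induced by interferon in many cell types. The libraries are bulk RNA, in which fewer expressing cells and less RNA per cell cannot be told apart.

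All 8 genes lie in one cluster on chromosome 15, spread over 805 kb of the GRCm39 build (GENCODE M39 annotation). Ly6d (ENSMUSG00000034634) occupies chr15:74633902-74635597 on the minus strand, followed by Ly6k (ENSMUSG00000044678) at chr15:74668723-74672029, also on the minus strand. Ly6e (ENSMUSG00000022587) spans chr15:74826860-74847454 on the plus strand, and Ly6a (ENSMUSG00000075602) lies 16385 bases beyond it on the opposite strand, at chr15:74863840-74869880. The Ly6C pair follows on the minus strand, with Ly6c1 (ENSMUSG00000079018) at chr15:74915847-74920686 and Ly6c2 (ENSMUSG00000022584) at chr15:74980003-74988467. Ly6f (ENSMUSG00000022583) lies at chr15:75140205-75148951 on the plus strand and Ly6h (ENSMUSG00000022577) at chr15:75424894-75439354 on the minus strand.

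Sequence decides which of these genes short reads can tell apart, so the first 120 coding bases are shown for Ly6a, the 3 members closest to it and the more distant Ly6e. They are printed 5′ to 3′ from the start codon, spliced from GRCm39 coding exons, and capitals in Ly6f, Ly6c1 and Ly6c2 mark bases that differ from Ly6a at the same position. Ly6e is given without capitals because its coding sequence is not collinear with that of Ly6a.
Ly6a: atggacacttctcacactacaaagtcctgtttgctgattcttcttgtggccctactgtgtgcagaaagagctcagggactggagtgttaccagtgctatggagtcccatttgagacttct
Ly6f: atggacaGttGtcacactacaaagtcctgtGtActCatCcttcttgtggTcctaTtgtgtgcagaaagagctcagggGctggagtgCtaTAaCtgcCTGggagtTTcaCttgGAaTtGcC
Ly6c1: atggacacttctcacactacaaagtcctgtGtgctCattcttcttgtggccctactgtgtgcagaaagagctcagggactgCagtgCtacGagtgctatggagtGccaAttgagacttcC
Ly6c2: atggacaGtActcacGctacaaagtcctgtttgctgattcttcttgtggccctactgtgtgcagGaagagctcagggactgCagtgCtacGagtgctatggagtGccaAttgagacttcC
Ly6e: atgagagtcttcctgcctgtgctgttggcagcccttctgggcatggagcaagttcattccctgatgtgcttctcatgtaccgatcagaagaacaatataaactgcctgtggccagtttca

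Within this stretch 24 bases of Ly6f, 8 of Ly6c1 and 10 of Ly6c2 differed from Ly6a. Over the whole coding sequence, Ly6c1 and Ly6c2 were 97.7% identical, with 9 mismatches in 393 bases. Ly6a was 84.6% identical to Ly6f, 81.8% to Ly6c1 and 81.6% to Ly6c2, but 52.2% to Ly6e. Ly6d, Ly6h and Ly6k were 40.9% to 50.5% identical to the other members. Reads were 75 bases long per the labels, so the share of each gene's 75-base transcript windows that also occur in another gene was counted. Of the windows of the main transcript, 22.2% of those of Ly6c1, 21.5% of those of Ly6c2 and 9.72% of those of Ly6a were shared with another gene, and none of those of Ly6d, Ly6e, Ly6f, Ly6h or Ly6k. The shared windows of Ly6a matched Ly6c1, Ly6i and the non-coding gene model Gm28068, whose reads are not in the table of protein-coding genes. The levels of Ly6c1 and Ly6c2 are therefore uncertain relative to each other, while most of the Ly6a transcript and all of the Ly6e transcript could be assigned by sequence.

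**Figure D1:**
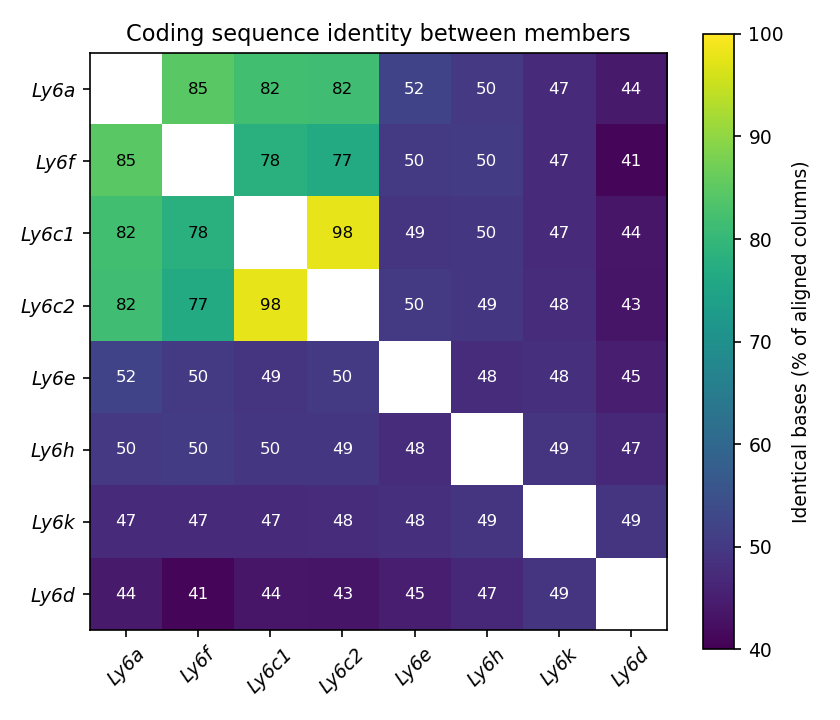
Coding sequence identity, as the percentage of aligned columns with the same base, for each pair of the 8 Ly6 genes, from 40 (dark) to 100 (yellow). Ly6a, Ly6f, Ly6c1 and Ly6c2 form one block of pairs at 76.6% or more, and all pairs outside it lie at 52.2% or less.

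Levels are given as deposited in TPM, a share of all transcripts in a library. TPM is scaled to transcript length, so levels of different genes can be compared within a library. The tables hold protein-coding genes whose TPM summed to between 500162 and 578952 per library, and 10537 to 11113 genes reached 1 TPM. The read depth behind them is unknown, so no counting error can be given. Prkaa1 stood at 15.5 and 16.6 TPM in the naïve, 7.24 and 6.94 in the AKO, 12.2 and 11.96 in the GKO, 2.30 and 2.04 in the DKO and 13.4 and 13.7 in the primed libraries, lowest in the lines labelled as lacking AMPK. Gys1 lay between 9.70 and 14.3 TPM in all 10, and an indel need not change its mRNA level, so it does not check the labels. The summed TPM of 12 naïve markers, Zfp42 and Nanog leading, ran from 1830 to 2101 in the naïve, AKO, GKO and DKO libraries and from 176 to 184 in the primed ones, and that of 12 primed markers from 71.4 to 108 and from 423 to 444. Both sums stood as the labels give them, but not every listed gene did. In the primed list, T was lower in the primed libraries (8.97 and 0.786 TPM) than in the naïve ones (15.7 and 14.5). Eomes was lower too (7.44 and 1.61 against 19.8 and 20.3), and the other listed primed genes were higher in primed than in naïve. Dnmt3b, with a primed mean of 238 TPM, led the sum. Fgf5 (10.7 and 0.447) and Cer1 (9.80 and 0.484) were high in 1 primed library alone.

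Ly6e and Ly6a made up nearly all of the expression of the 8 genes. Summed over the members, the mean TPM was 177 in naïve, 181 in AKO, 145 in GKO, 219 in DKO and 275 in primed ESCs. Ly6a took 23.2% of that sum in the naïve line, 17.3% in AKO, 7.35% in GKO, 35.8% in DKO and 0.0899% in the primed line (0.135% and 0.0408% in its libraries), and Ly6e took between 63.8% and 97.7%. The other 6 members together took 0.411% to 2.17%.

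Ly6a was lower in GKO than in naïve ESCs and higher in DKO than in any other line, and it was near 0 in the primed line. Its level was 44.4 and 37.6 TPM in the naïve libraries, 29.0 and 33.5 in AKO, 11.5 and 9.91 in GKO, 75.8 and 80.8 in DKO, and 0.388 and 0.107 in primed. The order of the lines was DKO, naïve, AKO, GKO, primed, and the libraries of different lines did not overlap in any pair of lines. The GKO mean, 10.7 ± 1.10 TPM (SD, n = 2), was 0.261 of the naïve mean of 41.0 ± 4.84, and the DKO mean, 78.3 ± 3.54, was 1.91 times the naïve mean.

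**Figure D2:**
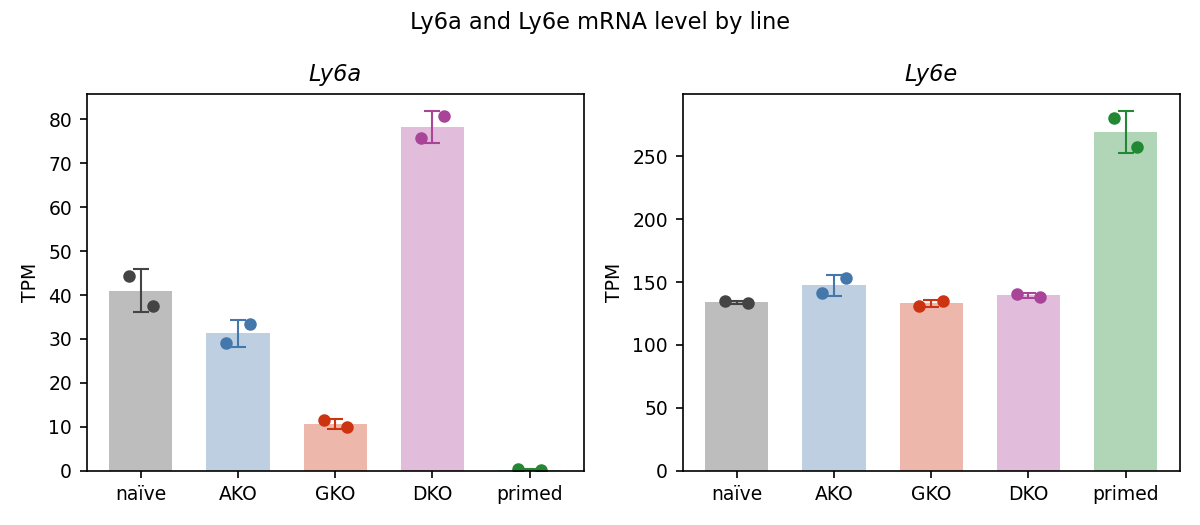
TPM of Ly6a (left) and Ly6e (right) in the 5 lines; points are the 2 libraries of a line, bars their mean and error bars the SD. The DKO points for Ly6a sit at 75.8 and 80.8 TPM, above all others, and the GKO points at 11.5 and 9.91, while Ly6e stays between 131 and 153 TPM outside the primed line.

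On the log2(TPM + 1) scale, on which all differences below are given, Ly6a was lower in GKO than in naïve ESCs (difference −1.84, SE 0.13, 95% interval −2.13 to −1.55). In DKO it was 0.92 higher than in naïve ESCs (SE 0.13, interval 0.63 to 1.21) and 1.300 higher than in AKO (interval 1.01 to 1.59). GKO and DKO, both without GYS1, were the widest apart of the 4 lines grown in naïve medium, with a GKO minus DKO difference of −2.76 (interval −3.05 to −2.47). Ly6a was thus lower without GYS1 where AMPK was present and higher without GYS1 where AMPK was absent. The GKO minus naïve difference less the DKO minus AKO difference was −3.14 (SE 0.18, interval −3.55 to −2.73). Neighbours in the order of lines were also apart, though the naïve and AKO lines least, at 0.38 (interval 0.09 to 0.67), and the AKO minus naïve difference did not pass the threshold that the fit across all genes sets. The primed minus naïve difference was −5.08 (interval −5.37 to −4.79), and on the TPM scale the primed mean of 0.248 ± 0.199 was 0.00604 of the naïve mean. Because of the pseudocount of 1, the differences understate the change of low levels.

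Sca-1 is also a marker of other cell types, so marker lists of those cells were summed in the same libraries. Of 10 blood cell markers, the sum lay between 0.719 and 4.30 TPM in all libraries with Cd34 leading outside the primed line; Hbb-bt was at 0 in every line, and Ptprc, the pan-leukocyte marker, was at 0 in naïve and DKO. Of 10 fibroblast markers, the sum was 3.40 to 4.05 TPM in naïve, 3.60 to 3.76 in AKO and 3.59 to 3.60 in DKO. It was 9.70 to 11.0 in GKO and 9.83 to 16.02 in primed. Most of the sum was Thy1 outside the primed line, and Fap was at 0 in all lines. Other listed genes differed between lines. Col1a2 stood at 4.176 and 4.841 TPM in primed and at 0.125 or less elsewhere. Col1a1 stood at 1.8 and 1.765 in primed and at 0.739 or less elsewhere. Pdgfrb stood at 1.569 and 1.498 in GKO and 1.026 and 0.992 in DKO, against 0.394 and 0.37 in naïve. The sum of 8 endothelial markers moved in the same order as Ly6a for DKO, naïve, AKO and GKO, at 30.8 to 31.4, 27.8 to 31.0, 25.8 to 26.6 and 17.4 to 17.8 TPM, with 15.98 to 17.5 in primed. Nearly all of it was Egfl7, while the defining marker Emcn was at 0 in all lines and Cdh5 at 0 in naïve, AKO and DKO. The sum of 10 trophoblast markers was highest in GKO (48.8 to 50.4 TPM, Tfap2c leading) and 19.2 to 36.1 elsewhere, and that of 10 primitive endoderm markers was 19.7 to 20.0 in GKO and 10.4 to 16.02 elsewhere. The part of such cells in the Ly6a differences was not tested.

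Ly6e was the most abundant member in every library and differed little among the 4 lines in naïve medium. It is best known as an interferon-induced antiviral protein and, in the mouse placenta, as the receptor of syncytin-A. Its level was 135 and 133 TPM in the naïve libraries, 142 and 153 in AKO, 131 and 135 in GKO, 141 and 138 in DKO, and 281 and 257 in primed. The naïve and GKO libraries overlapped, with a difference of −0.01 (SE 0.06, 95% interval −0.13 to 0.12), whose sign turned to 0.10 under quantile normalization. The DKO minus naïve difference was 0.06 (interval −0.07 to 0.19) and the DKO minus AKO difference −0.08 (interval −0.21 to 0.05). The AKO minus naïve difference reached 0.14 (interval 0.01 to 0.27). In the primed line Ly6e was higher by 1.00 (SE 0.06, interval 0.87 to 1.13), 2.01 times the naïve mean TPM. Ly6a and Ly6e, 16.4 kb apart, therefore differed in opposite directions between primed and naïve ESCs, and their ratio of mean TPM, Ly6e over Ly6a, was 3.26 in naïve, 4.72 in AKO, 12.5 in GKO, 1.78 in DKO and 1087 in primed. The primed ratio rests on Ly6a levels near 0 and was 724 in one library and 2405 in the other.

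Ly6h, known mainly from the brain, where it binds nicotinic acetylcholine receptors, was low in the 4 lines in naïve medium and higher in the primed line. It stood at 0.400 and 1.05 TPM in the naïve libraries, 0.648 and 1.17 in AKO, 1.16 and 1.31 in GKO, 0.306 and 0.693 in DKO, and 5.74 and 3.86 in primed. The primed libraries were above all others, and the naïve, AKO and DKO libraries overlapped one another. The primed minus naïve difference was 1.76 (SE 0.23, 95% interval 1.24 to 2.27). GKO lay above naïve without overlap, at 0.40 (interval −0.12 to 0.92), and above DKO at 0.59 (interval 0.07 to 1.11). At this low level these last differences are close to the spread between libraries of one line, which was up to 0.55 on the same scale outside the primed line.

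Ly6k, a testis gene needed for sperm function, was higher in the naïve and AKO lines than in the other 3. Its level was 1.14 and 0.604 TPM in the naïve libraries and 1.19 and 0.734 in AKO, against 0.098 and 0.123 in GKO, 0 and 0.278 in DKO, and 0 in both primed libraries. The naïve and AKO libraries were all above the GKO, DKO and primed ones. The difference was −0.74 (SE 0.17, 95% interval −1.12 to −0.36) for GKO minus naïve, −0.71 (interval −1.09 to −0.33) for DKO minus naïve and −0.78 (interval −1.17 to −0.40) for DKO minus AKO. GKO and DKO overlapped (difference −0.03, interval −0.41 to 0.35). No fold is given against the primed line, in which the gene is listed at 0. Ly6k entered the fit only because 1 naïve and 1 AKO library reached 1 TPM, so it had to be higher in those lines, and without DKO replicate 1, the library at 0, the DKO minus naïve difference was −0.54 and no longer passed the threshold.

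The remaining 4 members were too low to judge, since none reached 1 TPM in any library. Ly6c1 ranged from 0.053 to 0.666 TPM, with both extremes in the primed line, and Ly6c2 from 0 to 0.133 with 5 libraries at 0. Given their shared sequence windows, reads at such levels cannot be divided between them with confidence. Ly6d, a marker of early B-cell commitment, was at 0 in 7 libraries, and its highest values were the 2 primed ones, 0.678 and 0.675 TPM. Ly6f was at 0 in 8 libraries and was listed above 0 in the 2 primed ones alone, at 0.138 and 0.125. No fold or difference is drawn from these levels.

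**Figure D3:**
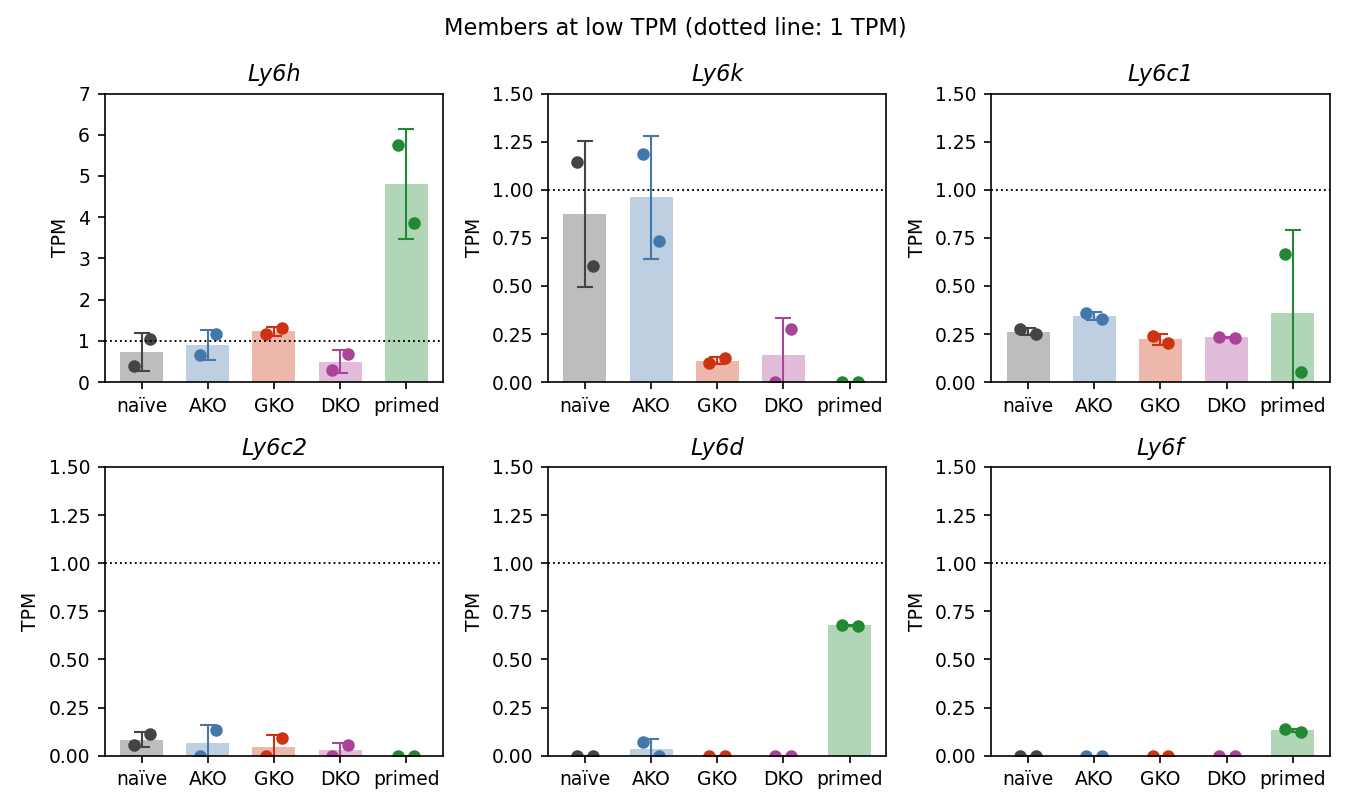
TPM of the 6 less abundant members in the 5 lines, with 1 TPM as a dotted line; points are the 2 libraries of a line, bars their mean and error bars the SD, drawn from 0 upward. Ly6h exceeds 1 TPM in both primed, both GKO, 1 naïve and 1 AKO library, Ly6k only in 1 naïve and 1 AKO library, and Ly6c1, Ly6c2, Ly6d and Ly6f in none.

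Counted over the 4 members that passed the filter on low values, the fit called 2 in GKO minus naïve, both lower (Ly6a and Ly6k), where it called 51.7% of the 12060 genes tested and 27.1% as lower. It called 2 in DKO minus naïve, Ly6a higher and Ly6k lower, against 46.0% of all genes (21.7% higher, 24.3% lower). In AKO minus naïve it called 0, against 0.224%. In primed minus naïve it called all 4, Ly6e and Ly6h higher and Ly6a and Ly6k lower, against 80.0% (37.4% higher, 42.5% lower). In GKO minus DKO it called 1, Ly6a, lower, against 43.5% (22.4% lower), and in DKO minus AKO 2, Ly6a higher and Ly6k lower, against 46.3% (22.4% higher, 23.9% lower). In the difference of the GYS1 effect between AMPK-intact and AMPK-deficient cells it called 1, Ly6a, lower, against 25.8% (13.1% lower). Among all genes, the shares whose libraries did not overlap between the lines were 81.6% for GKO and naïve, 78.8% for DKO and naïve, 49.3% for AKO and naïve, 88.5% for primed and naïve, 76.7% for GKO and DKO and 77.0% for DKO and AKO. The members were listed for their values and passed the filter partly through them, so nothing is read from these counts.

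**Figure D4:**
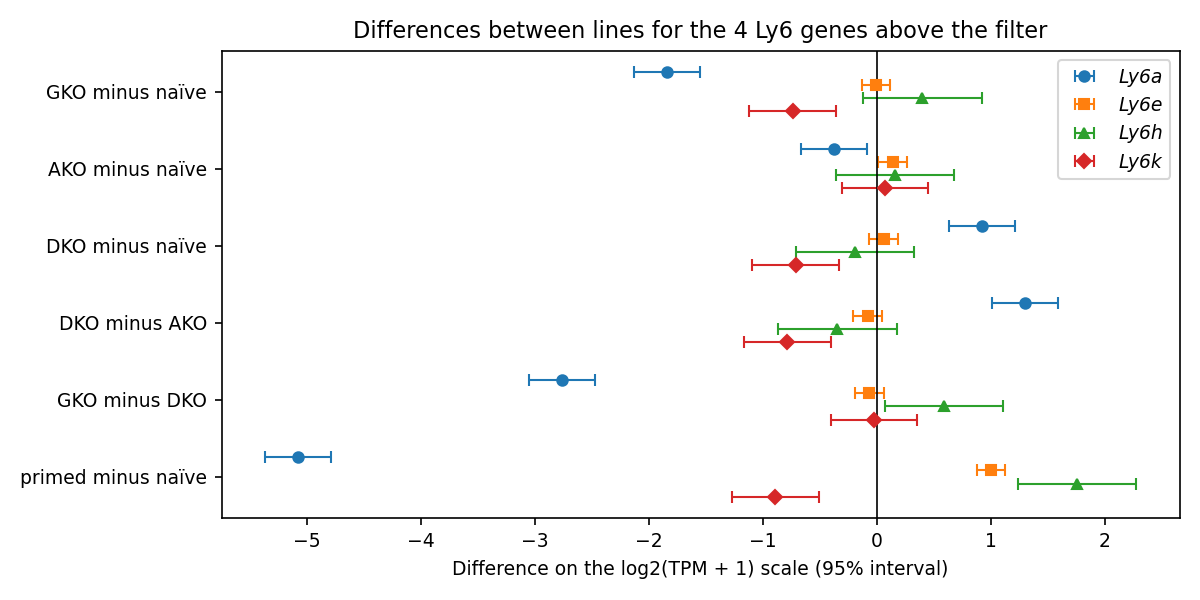
Differences between lines on the log2(TPM + 1) scale for the 4 Ly6 genes that passed the filter; points are the limma estimates and bars their 95% intervals. Ly6a lies at −1.84 in GKO minus naïve and 0.92 in DKO minus naïve, whereas the Ly6e points stay within 0.14 of 0 except in primed minus naïve.

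The rest of the Ly6/uPAR family was for the most part silent. Of 36 other family genes listed, 34 were in the table and 8 passed the filter: Ly6g5b, Ly6g6d, Ly6g6e, Lypd6, Lypd6b, Cd59a, Cd59b and Plaur. Of these 8, 7 (87.5%) passed the test in primed minus naïve, 5 higher and 2 lower, against 80.0% of all genes. Lypd6b entered the fit only because the 2 primed libraries reached 1 TPM (1.89 and 1.85), so it had to be higher there. In GKO minus naïve 2 passed, both higher, against 51.7% of all genes, and in DKO minus naïve 2, both higher, against 46.0%. In GKO minus DKO 2 passed, 1 in each direction, against 43.5%. In AKO minus naïve 0 passed, against 0.224%. The GKO minus naïve count was 0 without GKO replicate 1 and 1 without naïve replicate 2. Cd59a, an inhibitor of the complement membrane attack complex, rose from 1.17 ± 0.171 TPM in naïve to 25.0 ± 2.55 in primed ESCs (SD, n = 2; difference 3.58, SE 0.10, limma adjusted p = 3.53e-09). Lypd6, a modulator of Wnt signalling, rose from 1.06 to 10.8 TPM (limma adjusted p = 5.96e-06).

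Ly6g6e, a family gene outside the chromosome 15 cluster, stood at 9.62 and 8.94 TPM in naïve, 7.35 and 6.34 in AKO, 9.44 and 8.31 in GKO, 12.5 and 13.9 in DKO, and 0.065 and 0.164 in primed. DKO was highest and primed lowest, the ranks Ly6a had too, but the GKO and naïve libraries overlapped. It rose in DKO against naïve (difference 0.47, SE 0.10, limma adjusted p = 0.00459), was lower in GKO than in DKO (−0.53, limma adjusted p = 0.00285) and fell in primed ESCs (−3.21, limma adjusted p = 5.53e-09). Plaur, the urokinase receptor, was higher in GKO than in DKO by 0.73 (SE 0.16, limma adjusted p = 0.00527), 6.20 against 3.36 TPM.

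Genes of the interferon pathway, which induces Ly6a and Ly6e in other cells, were called in both directions, at shares near those over all genes. Of 12 receptors and signal transducers, all tested, 6 (50%) changed in GKO minus naïve (4 higher, 2 lower), against 51.7% of all genes. In DKO minus naïve 6 (50%) changed (4 higher, 2 lower), against 46.0%, and in AKO minus naïve 0, against 0.224%. Their median difference was −0.02 in GKO minus naïve and 0.02 in DKO minus naïve, against −0.01 over all genes in each. Over all genes the fit called 43.5% in GKO minus DKO. In GKO minus DKO 7 changed, 3 higher and 4 lower, a count that was 3 without DKO replicate 2. Irf1, a transcription factor of the interferon response, was 6.02 TPM in DKO, lower than 9.22 in naïve (−0.54, SE 0.07, limma adjusted p = 0.000331) and than 9.44 in GKO. Tyk2, a kinase bound to the type I interferon receptor, fell from 16.1 to 10.6 TPM in GKO (−0.55, SE 0.06, limma adjusted p = 9.66e-05) and was at 14.7 in DKO. Irf9, a subunit of the interferon-stimulated transcription factor complex, rose in both GKO (0.52, limma adjusted p = 0.00312) and DKO (0.39, limma adjusted p = 0.0142). The receptor subunit gene Ifnar2 rose both in GKO (0.47, limma adjusted p = 0.0046) and in DKO (0.66, limma adjusted p = 0.000886) against naïve.

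Of 36 interferon-stimulated genes listed, 16 passed the filter. Over all genes the fit called 51.7% in GKO minus naïve, 46.0% in DKO minus naïve and 43.5% in GKO minus DKO. In GKO minus naïve 8 (50%) changed, 4 in each direction (5 without naïve replicate 2 or without GKO replicate 2), and in DKO minus naïve 6 (37.5%), with 4 higher and 2 lower. In AKO minus naïve 0 passed, against 0.224% of all genes. In GKO minus DKO 8 changed, 1 higher and 7 lower, and without DKO replicate 2 the count was 4. Over all genes 2554 were called higher and 2698 lower there. The median difference of the list was −0.15, against −0.01 over all genes. In primed minus naïve 14 (87.5%) changed, 3 higher and 11 lower, against 80.0% of all genes. Their median difference there was −1.01 against −0.05 over all genes. Bst2, which encodes the antiviral tether tetherin, itself GPI-anchored, fell by 1.06 in GKO (SE 0.08, limma adjusted p = 2.13e-05) and by 1.27 in DKO (limma adjusted p = 1.17e-05) against naïve, and rose by 1.06 in primed ESCs. Ifitm3, an antiviral membrane protein, was lower in GKO than in DKO (54.0 against 88.2 TPM, difference −0.70, SE 0.16, limma adjusted p = 0.00824). Oas1a, which encodes an oligoadenylate synthetase, rose in both GKO (0.46, limma adjusted p = 0.000912) and DKO (0.69, limma adjusted p = 0.000135). In primed ESCs Trim25 fell by 5.70 (from 52.2 to 0.025 TPM), Ifitm1 fell by 4.28 and Xaf1 fell by 3.77, and B2m, the light chain of MHC class I, rose by 2.30 (limma adjusted p = 7.28e-08).

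GPI anchoring brings most Ly6 proteins to the surface, and its genes were broadly expressed. Over all tested genes the fit called 51.7% in GKO minus naïve, 46.0% in DKO minus naïve and 0.224% in AKO minus naïve. It called 43.5% in GKO minus DKO (2554 genes higher, 2698 lower) and 80.0% in primed minus naïve, where the shares of tested anchor genes were 45.5% and 84.8%. The median difference of the anchor genes in GKO minus DKO was −0.12, against −0.01 over all genes. Of 36 genes of anchor synthesis and remodelling, 33 were tested, and 18 (54.5%) changed in GKO minus naïve, 6 higher and 12 lower (10 to 11 without naïve replicate 2, GKO replicate 1 or GKO replicate 2). In DKO minus naïve 10 (30.3%) changed, 5 in each direction (6 without naïve replicate 1), and in AKO minus naïve 1 (0 without any 1 of the naïve and AKO libraries). In GKO minus DKO 15 changed, 2 higher and 13 lower (9 without GKO replicate 2), and in primed minus naïve 28, 14 in each direction. One of the higher genes, Tmem246, entered the fit only because the 2 primed libraries reached 1 TPM (7.24 and 4.83), so it had to be higher there. Piga, the catalytic subunit of the first step of synthesis, stood at 42.0 and 43.6 TPM in naïve, 45.6 and 44.0 in AKO, 18.2 and 18.2 in GKO, 31.1 and 29.3 in DKO, and 10.2 and 11.1 in primed, falling by 1.19 in GKO (SE 0.06, limma adjusted p = 1.49e-06), by 0.49 in DKO (limma adjusted p = 0.000175) and by 1.91 in primed. Gpaa1, a subunit of the transamidase that attaches the anchor, fell by 0.61 in GKO (limma adjusted p = 3.09e-05). Tmem8, the symbol in the tables for Pgap6, a GPI-specific phospholipase, was 13.7 and 13.1 TPM in GKO against 23.5 and 26.3 in DKO (−0.84, SE 0.07, limma adjusted p = 3.09e-05).

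Among 25 genes of other GPI-anchored surface proteins, 19 were tested. In GKO minus naïve 6 (31.6%) changed, 5 higher and 1 lower, against 51.7% of all genes. In DKO minus naïve 11 (57.9%) changed, 9 higher and 2 lower, against 46.0%. In primed minus naïve 16 (84.2%) changed, 9 higher and 7 lower, against 80.0%. Over all genes the fit called 0.224% in AKO minus naïve and 43.5% in GKO minus DKO (2554 higher, 2698 lower). In AKO minus naïve 0 passed. In GKO minus DKO 10 changed, 3 higher and 7 lower (6 without DKO replicate 2). Cd55, the complement decay-accelerating factor, stood at 2.37 and 2.15 TPM in naïve, 2.40 and 2.30 in GKO and 7.93 and 7.90 in DKO, and rose by 1.45 in DKO against naïve (SE 0.07, limma adjusted p = 2.49e-06). Folr1, the folate receptor, was 63.6 TPM in DKO against 35.1 in naïve and 29.5 in GKO (DKO minus naïve 0.84, SE 0.22, limma adjusted p = 0.0118; GKO minus DKO −1.08, limma adjusted p = 0.00382). Gpc4, a glypican, was 27.2 TPM in DKO against 11.7 in naïve (1.15, SE 0.24, limma adjusted p = 0.00454). Thy1 went the other way, 7.81 TPM in GKO against 2.72 in naïve (1.24, SE 0.33, limma adjusted p = 0.0131) and 1.96 in DKO. In primed ESCs Tdgf1, the Nodal co-receptor Cripto, fell from 429 to 1.79 TPM (−7.43, limma adjusted p = 6.15e-08), and Cd24a rose from 24.4 to 185 (2.87, limma adjusted p = 1.27e-09).

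The chromosome around the cluster was examined for differences shared with the members. Of 62 other protein-coding genes whose start lies within 1 Mb of a member, 36 were tested; none of the 36 lies between the start of Ly6k and that of Ly6h. In GKO minus naïve 27 (75%) changed, 12 higher and 15 lower, with a median of −0.14, against 61.1% of the 458 tested genes of chromosome 15 and 51.7% of all genes. In DKO minus naïve 20 (55.6%) changed, 7 higher and 13 lower, with a median of −0.07, against 56.1% of the chromosome and 46.0% of all genes. The chromosome's medians were −0.15 and −0.16 in these contrasts, against −0.01 over all genes. Over all genes the fit called 80.0% in primed minus naïve and 43.5% in GKO minus DKO. In primed minus naïve 28 changed, 10 higher and 18 lower. Of these, Nrbp2 had a mean of 4.87 TPM in primed and 0.412 or less elsewhere. It passed the filter through the primed libraries and had to be higher there. In GKO minus DKO 14 changed, 9 higher and 5 lower (9 without GKO replicate 2 or DKO replicate 1). In AKO minus naïve 0 changed, against 0.224% of all genes. The neighbours' differences in GKO minus naïve ran from −0.97 (Slc52a2) to 1.00 (Eppk1), which does not reach the −1.84 of Ly6a. In DKO minus naïve they ran from −0.85 (Hgh1) to 0.85 (Fam83h), which lies within the 95% interval of the Ly6a difference. By the ratio of mean TPM, 5 neighbours exceeded the 1.91 of Ly6a in DKO over naïve: Eppk1 (7.17), Fam83h (2.73), Nrbp2 (2.07), Oplah (2.01) and Grina (1.97). All 5 were far below Ly6a in level. Eppk1 (0.721 against 0.1005 TPM) and Nrbp2 (0.381 against 0.184, not called) were below 1 TPM in both lines, so their ratios rest on values near 0. The means of Fam83h were 2.37 and 0.868, of Oplah 3.98 and 1.98, and of Grina 8.80 and 4.46 TPM. The nearest tested gene, Them6, 40850 bases from its nearest member, stood at 11.0 and 10.6 TPM in naïve, 10.8 and 10.8 in GKO, 6.86 and 8.15 in DKO, and 9.25 and 9.56 in primed. It was not called in GKO minus naïve (SE 0.08) and fell in DKO (−0.48, limma adjusted p = 0.00124), where Ly6a was highest. Arc, farther out on the same side, fell by 0.41 in GKO, 0.60 in DKO and 2.36 in primed ESCs (limma adjusted p = 0.00291, 0.000442 and 1.14e-08).

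**Figure D5:**
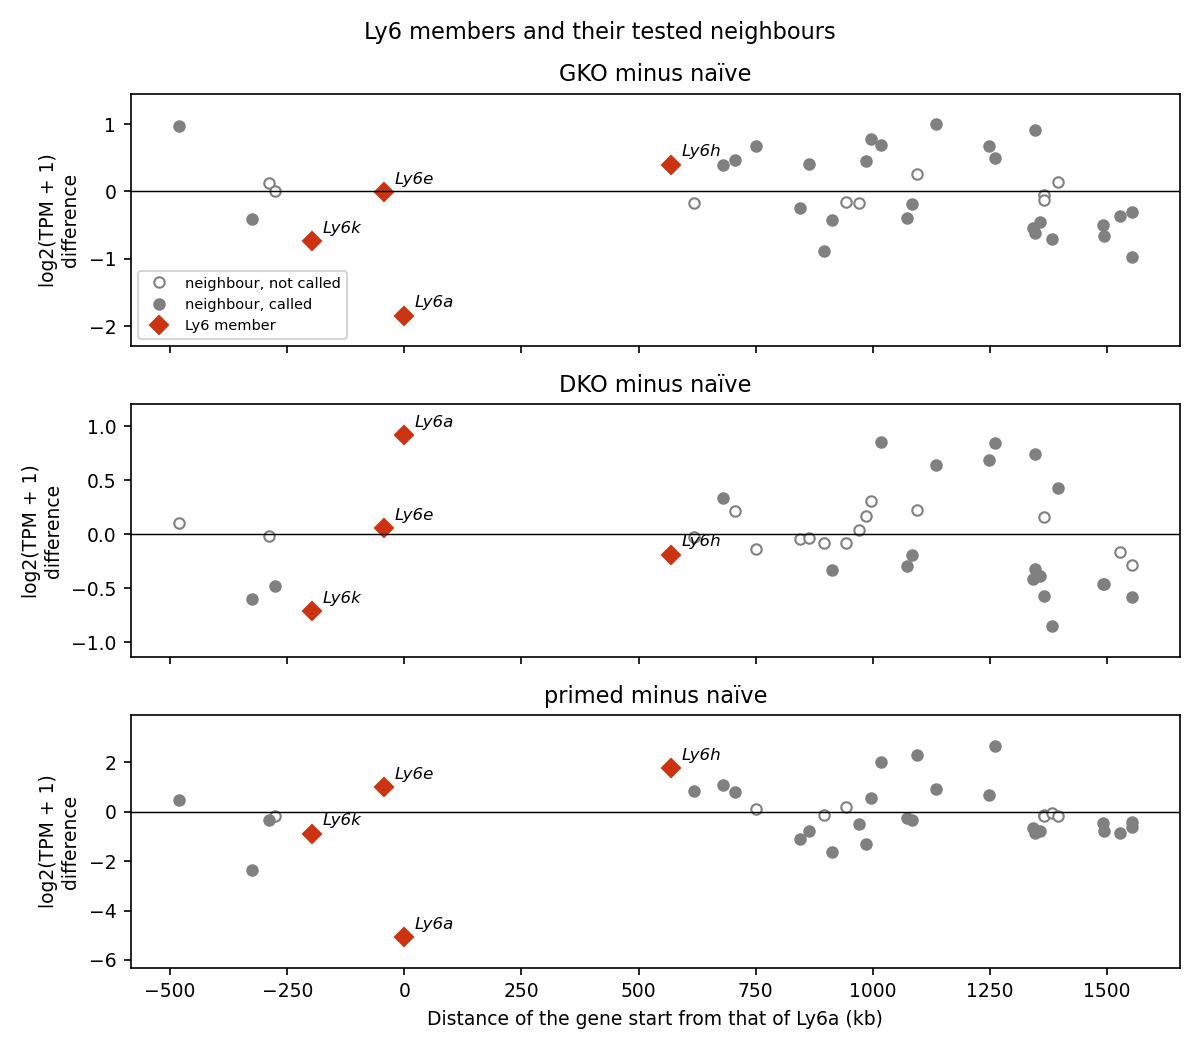
Differences on the log2(TPM + 1) scale in GKO, DKO and primed against naïve ESCs for the tested Ly6 members (red diamonds) and the 36 tested neighbours (circles, filled where called), by distance of the gene start from that of Ly6a in kb. Ly6a is the lowest point in GKO minus naïve at −1.84 and in primed minus naïve at −5.08, and the highest on this scale in DKO minus naïve at 0.92, with Fam83h at 0.85.

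Promoter sequences of Ly6c1, Ly6c2 and Ly6f were in the RefSeq table (GRCm38.p6), and those of Ly6a, Ly6d, Ly6e, Ly6h and Ly6k were not matched in it. The gamma-activated site TTCNNNGAA and the interferon-stimulated response element, searched on both strands in 250 bases before the start, had no match in these 3 genes. Of 32851 promoters in the table, 7.02% held the first and 2.98% the second motif. All 3 genes were below 1 TPM throughout.

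The genes whose levels followed Ly6a most closely over the 10 libraries, among 9434 ranked by Pearson's r of log2(TPM + 1), were Hps6 (0.996), Brca2 (0.995), Actb (0.994), Tsc2 (0.993) and Tkfc (0.993). Over the 8 libraries without the primed line, a step added after seeing the data, r was 0.968 to 0.985 for the same 5 genes. These genes had been ranked on those 8 libraries too, so this r is no separate check. None of the 5 lies on chromosome 15. Hps6, which encodes a subunit of a complex for lysosome-related organelles, was 4.47 and 4.47 TPM in naïve, 3.30 and 3.06 in GKO, 5.27 and 5.81 in DKO and 1.75 and 1.47 in primed, a much narrower range than that of Ly6a. Those closest to Ly6e were Tmem246 (0.994), Igfbp2 (0.993), Jag1 (0.992), Slc7a6 (0.992) and Kctd3 (0.992), but over the 8 libraries r was 0.611 to 0.813, so the likeness rested largely on the primed line. Tmem246 is the symbol in the tables for Pgap4, a GPI-remodelling enzyme, and stood at 0.175 to 0.386 TPM outside the primed line and at 7.24 and 4.83 in it. It entered the fit through the primed libraries alone. For Ly6h the closest were Phpt1, Erp44, Syt11, Trabd and C1ql1 (0.968 to 0.976), with 0.744 to 0.833 without the primed libraries. For Ly6k they were Rps16, Mrps9, Rpsa, Exosc4 and Slc25a5 (0.957 to 0.960). Trabd and Exosc4 lie on chromosome 15, and Exosc4 is among the tested neighbours within 1 Mb of a member. Ly6k did not exceed 1.19 TPM, so its correlations rest on values near 0. The 10 libraries fall into 5 pairs by line, so these correlations are descriptions of 5 levels and carry no p-value.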

How the data were processed

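Poly(A) RNA of 10 libraries from 5 mouse ESC lines was sequenced as stranded 75-base read pairs per the labels; the paper's methods name another kit and 3 of the lines, so the chemistry of each library is not settled. The submitters' processing notes name Trim Galore 0.6.6, STAR 2.7.9a, RSEM 1.3.3 and the GRCm38 and GRCh38 builds, while the methods name GRCm39. The authors deposited 1 table per library of TPM values, transcript shares scaled to length, for 21853 protein-coding genes, without read counts, so depth and counting error are unknown. Groups and replicate numbers come from the labels. The members and all other gene lists were chosen with earlier results of these data known. A gene entered the fit if 2 or more libraries reached 1 TPM, which left 12060, tested with limma 3.58.1 (R 4.3.3) on log2(TPM + 1), with 1 mean per line, all 10 libraries sharing the spread, an intensity trend, and Benjamini-Hochberg adjustment over all tested genes at 0.05, called the threshold here. The fit was tested on simulated data, where it recovered 196 of 200 genes changed by 1 log2 unit in GKO minus naïve among 12055 genes. It also called 9 unchanged genes. The changed genes were few and were drawn from those well above the filter. The simulation therefore does not cover members near or below 1 TPM, or contrasts in which many genes change. With 2 libraries a line, an exact permutation test of 1 gene cannot go below p = 0.333, and none was used. Named genes are all 8 members, genes from a set of up to 3 per list, comparison and direction (called, largest differences, no overlap of libraries, a mean of at least 5 TPM in the higher line), the 5 genes most like each tested member, and Prkaa1 and Gys1 as a check of the labels. The text gives part of that set, chosen after its values were seen. Other genes (Eppk1, Fam83h, Hgh1 and Slc52a2 as the ends of a range, Nrbp2, Oplah and Grina for their ratios, Them6 as the nearest neighbour, and genes named from the marker lists) were chosen after their values were seen. List symbols absent from the tables were matched through RefSeq synonyms. Coding sequences were spliced from GRCm39 with the GENCODE M39 annotation and aligned in pairs with Biopython 1.88. This replaced a planned protein comparison, for which no protein sequences were used here. The reference is of strain C57BL/6J, not of the 129 background of J1, and strain differences were not examined. Alternatives were another pseudocount, other filters, quantile and median-ratio scaling, no trend, a replicate block, fits on the compared lines alone, and leaving out each library.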

Additional observations from a re-analysis of the deposited data

Results flagged for a closer look

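Ly6a was picked out because the loss of GYS1 went with opposite differences in cells with and without AMPK. Both GKO libraries (11.5 and 9.91 TPM) lay below both naïve libraries (44.4 and 37.6), and both DKO libraries (75.8 and 80.8) above both AKO libraries (29.0 and 33.5). The GKO minus naïve difference less the DKO minus AKO difference was −3.14 (SE 0.18) on the log2(TPM + 1) scale. Because Ly6a was listed with these values known, no p-value is given for that difference, and its call in the fit is not read as a result. Each genotype is 1 line, so a line and its genotype cannot be told apart.

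Tmem8 (Pgap6) showed the same kind of opposite differences. It was 19.9 and 20.7 TPM in naïve and 13.7 and 13.1 in GKO, against 22.0 and 21.2 in AKO and 23.5 and 26.3 in DKO, and the difference between the effects was −0.76 (SE 0.09, limma adjusted p = 0.000842). The rise from AKO to DKO was smaller than the fall from naïve to GKO. Tmem8 was picked out for these opposite differences, so the p-value adds no separate support.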

How the results depend on the processing

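The directions and calls of Ly6a were the same under all alternatives run, its GKO minus naïve difference running from −1.96 to −1.73, DKO minus naïve from 0.80 to 1.04, GKO minus DKO from −2.86 to −2.67, and the difference of the GYS1 effect with and without AMPK from −3.26 to −3.03. The cause of the changes below was not tested. Under quantile normalization Ly6e turned sign in GKO minus naïve (0.10) and DKO minus AKO (0.023) and passed the threshold in DKO minus naïve (0.16). With a pseudocount of 0.1 Ly6k turned sign in GKO minus DKO (0.11), and with the compared lines alone in the fit Ly6h passed the threshold in GKO minus DKO (0.59). A filter at a mean of 5 TPM removed Ly6h and Ly6k. The replicate numbers did not pair the libraries, since deviations of libraries with the same number correlated between −0.13 and 0.08 over the 10 pairs of lines. Leaving out 1 library, which assumes that the lone library left varies like the others, member differences that turned sign or lost the threshold ran −0.031 to 0.015 for Ly6e in GKO minus naïve, −0.12 to 0.43 for Ly6h in AKO minus naïve, −0.47 to 0.087 for Ly6h in DKO minus naïve, −0.14 to 0.24 for Ly6k in AKO minus naïve, −0.92 to −0.54 for Ly6k in DKO minus naïve, −0.20 to 0.15 for Ly6k in GKO minus DKO, −0.16 to 0.22 for Ly6k in the difference of the GYS1 effect. Ly6k lost its call in DKO minus naïve without DKO replicate 1.

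Counts of genes called in the other lists that moved by over 1.5 times follow, with the count of the fit as described in parentheses. With a pseudocount of 0.1, they were other Ly6/uPAR genes 1 in GKO minus naïve (from 2), 0 in DKO minus naïve (from 2), and GPI anchor synthesis 0 in AKO minus naïve (from 1). Without a filter on low values, they were other Ly6/uPAR genes 5 in GKO minus naïve (from 2), 6 in DKO minus naïve (from 2), 1 in AKO minus naïve (from 0), 5 in GKO minus DKO (from 2), and interferon-stimulated genes 22 in primed minus naïve (from 14), and other GPI-anchored proteins 3 in the difference of the GYS1 effect (from 7), and chromosome 15 neighbours 1 in AKO minus naïve (from 0). With a filter at a mean of 5 TPM, they were other Ly6/uPAR genes 0 in GKO minus naïve (from 2), 1 in DKO minus naïve (from 2), 3 in primed minus naïve (from 7), 2 in DKO minus AKO (from 4), and interferon receptors and transducers 3 in DKO minus naïve (from 6), 4 in GKO minus DKO (from 7), 3 in DKO minus AKO (from 6), and interferon-stimulated genes 5 in GKO minus DKO (from 8), and other GPI-anchored proteins 3 in GKO minus naïve (from 6), 7 in DKO minus naïve (from 11), 10 in primed minus naïve (from 16), 5 in GKO minus DKO (from 10), 6 in DKO minus AKO (from 11), 4 in the difference of the GYS1 effect (from 7), and chromosome 15 neighbours 16 in GKO minus naïve (from 27), 17 in primed minus naïve (from 28), 7 in GKO minus DKO (from 14), 2 in the difference of the GYS1 effect (from 6). Under quantile normalization, they were other Ly6/uPAR genes 1 in GKO minus naïve (from 2). Without the intensity trend, they were GPI anchor synthesis 0 in AKO minus naïve (from 1). With a replicate block, they were GPI anchor synthesis 0 in AKO minus naïve (from 1). With the libraries of the compared lines alone in the fit, they were other Ly6/uPAR genes 5 in DKO minus naïve (from 2), and interferon receptors and transducers 5 in the difference of the GYS1 effect (from 3), and GPI anchor synthesis 0 in AKO minus naïve (from 1), 11 in the difference of the GYS1 effect (from 7), and other GPI-anchored proteins 10 in GKO minus naïve (from 6), and chromosome 15 neighbours 10 in the difference of the GYS1 effect (from 6). Leaving out 1 library moved further counts. For other Ly6/uPAR genes the counts ran 2 to 3 in DKO minus AKO (from 4), 0 to 2 in GKO minus naïve (from 2), 1 to 2 in the difference of the GYS1 effect (from 2). For interferon receptors and transducers the counts ran 3 to 6 in DKO minus AKO (from 6), 3 to 5 in GKO minus DKO (from 7). For interferon-stimulated genes the counts ran 4 to 7 in GKO minus DKO (from 8), 5 to 7 in GKO minus naïve (from 8), 1 to 5 in the difference of the GYS1 effect (from 6). For GPI anchor synthesis the counts ran at 0 in AKO minus naïve (from 1), 7 to 9 in DKO minus AKO (from 12), 6 to 9 in DKO minus naïve (from 10), 9 to 12 in GKO minus DKO (from 15), 10 to 12 in GKO minus naïve (from 18), 4 to 7 in the difference of the GYS1 effect (from 7). For other GPI-anchored proteins the counts ran 6 to 7 in GKO minus DKO (from 10), 2 to 4 in the difference of the GYS1 effect (from 7). For chromosome 15 neighbours the counts ran 9 to 10 in GKO minus DKO (from 14), 2 to 4 in the difference of the GYS1 effect (from 6). In the difference of the GYS1 effect, most single libraries moved the counts of other Ly6/uPAR genes, interferon-stimulated genes, other GPI-anchored proteins and chromosome 15 neighbours. Only naïve replicate 1 moved that of GPI anchor synthesis, and no library moved that of interferon receptors and transducers. No list count of this difference is used in the report. Read depth is unknown, which limits every value near 0.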
